A study of Mus musculus with 12 samples.

Results

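Imprinted genes are expressed mainly from the copy inherited from a single parent, because methylation set in the egg or sperm marks small control regions beside them. They lie in clusters, and a gene active on the maternal copy often sits beside a gene active on the paternal copy. Many act on growth of the fetus and placenta or on hormone and insulin signalling, and many are silenced after birth. The 10 genes described here, H19, Meg3, Dlk1, Peg3, Mest, Grb10, Plagl1, Ndn, Peg10 and Sgce, were taken by gene name from the 55004 genes of the authors' count table, and each name matched 1 row. They were followed in TM3, a mouse Leydig cell line, and TM4, a mouse Sertoli cell line. Each line was held for 72 h in 100 uM MEHP (the monoester formed from the plasticizer DEHP) or in 0.1% DMSO, the solvent control. A DMSO percentage is recorded for the DMSO groups only. The groups TM3 DMSO, TM3 MEHP, TM4 DMSO and TM4 MEHP held 3 libraries each. The labels do not tell whether the 3 are separate cultures, and each p-value therefore covers only the spread between these libraries, which may be technical. Some label fields call the lines rat, but the labelled organism is mouse and so are the gene identifiers. Gene counts do not tell the maternal from the paternal copy, so imprinting itself was not measured.

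The libraries held 15771908 to 18203115 counts, and 3 counts, taken as the limit that a count of 0 allows, corresponded to 0.165 to 0.190 CPM (counts scaled to library size, with TMM factors), which covers counting error only. Of the markers that define the labelled cell types, Lhcgr, Hsd3b1, Hsd3b6 and Hsd17b3 of Leydig cells were at 0 in every library, as was Fshr of Sertoli cells. Under DMSO, Leydig markers summed to 8.67 to 10.6 CPM in TM3 libraries and 8.71 to 10.5 in TM4 libraries, and Sertoli markers to 423 to 462 and 252 to 261 CPM, so neither list separated the lines as the labels name them. Germ cell, leukocyte and endothelial markers summed to at most 4.91 CPM per list in any library.

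Sequences are given for the members that showed the clearest contrasts, Grb10, Peg10 and H19. RefSeq windows on GRCm38.p6, running from 250 bases before to 50 after a start site, covered 7 of the 10 members. Grb10 has windows at chr11:12037371-12037670 and chr11:12027922-12028221, both on the minus strand. The capitals mark TGCCGC on either strand, the core letters bound by ZFP57, a zinc finger protein that protects methylation at imprinted control regions. These windows were picked after the Grb10 values had been seen.
Grb10 upstream start: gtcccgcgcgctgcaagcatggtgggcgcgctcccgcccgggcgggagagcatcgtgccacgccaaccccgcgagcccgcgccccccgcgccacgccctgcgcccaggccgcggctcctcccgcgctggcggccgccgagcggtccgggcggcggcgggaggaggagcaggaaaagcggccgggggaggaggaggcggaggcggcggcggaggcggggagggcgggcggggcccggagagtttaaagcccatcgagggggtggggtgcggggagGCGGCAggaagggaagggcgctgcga
Grb10 downstream start: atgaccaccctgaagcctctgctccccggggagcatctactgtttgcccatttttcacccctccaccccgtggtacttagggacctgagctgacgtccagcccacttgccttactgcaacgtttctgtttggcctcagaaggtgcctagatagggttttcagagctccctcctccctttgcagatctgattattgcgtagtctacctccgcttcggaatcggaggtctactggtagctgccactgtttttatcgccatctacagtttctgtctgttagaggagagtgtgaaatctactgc
The upstream window held 45 CG pairs, a number that 1.93% of the 32851 mouse promoter windows reach, and 1 TGCCGC match, which 11.6% of all windows contain. The downstream window held 9 CG pairs, reached by 45.8% of windows, and the letters TGCCGC are not in it. The letters GCCAT, the core bound by the factor YY1, occurred on either strand 0 times upstream and 1 time downstream, and in 40.5% of all windows. Counts per gene do not separate the starts, so which of them TM3 cells used was not measured.

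Peg10 derives from a retrotransposon and keeps the viral habit of shifting the reading frame during translation. In its transcript the heptamer GGGAAAC (capitals) begins on base 3 of a codon, and the 30 bases around it lie at chr6:4755315-4755344 on the plus strand of GRCm38.
Peg10 frameshift site: gaattcgccgccGGGAAACtccccggcccc
H19 carries the precursor of miR-675 inside its gene, and the capitals mark the seed, bases 2 to 8, of each mature arm, at chr7:142577112-142577133 and chr7:142577078-142577099 on the minus strand of GRCm38.p6.
mmu-miR-675-5p: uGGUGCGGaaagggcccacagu
mmu-miR-675-3p: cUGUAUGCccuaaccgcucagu
The arms differ in seed. The poly-A libraries did not measure mature microRNAs, so the H19 values below speak only of the host transcript.

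The 10 genes fell into 3 kinds by level. Grb10, Peg10 and Sgce were abundant in at least 1 line, H19 and Mest were low in TM3 and near zero in TM4, and Meg3, Dlk1, Peg3, Plagl1 and Ndn were at or near zero in every group. Of the 10, 8 had a count in some library and 5 passed the filter on low counts, of which Grb10, H19 and Mest passed through TM3 alone and so had to differ between the lines, while Peg10 and Sgce had counts above the filter's minimum in both lines. The design allows the lines to be compared under solvent alone and under MEHP. Of 15700 genes tested, 82% differed between TM4 and TM3 under DMSO, 40% higher and 42% lower in TM4 (edgeR quasi-likelihood test, adjusted p under 0.05). Under MEHP 80.3% differed, 39.9% higher and 40.4% lower. In both conditions 2 members were higher in TM4 and 3 lower, and since a difference between the lines is the usual case, nothing is read from that count.

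**Figure D1:**
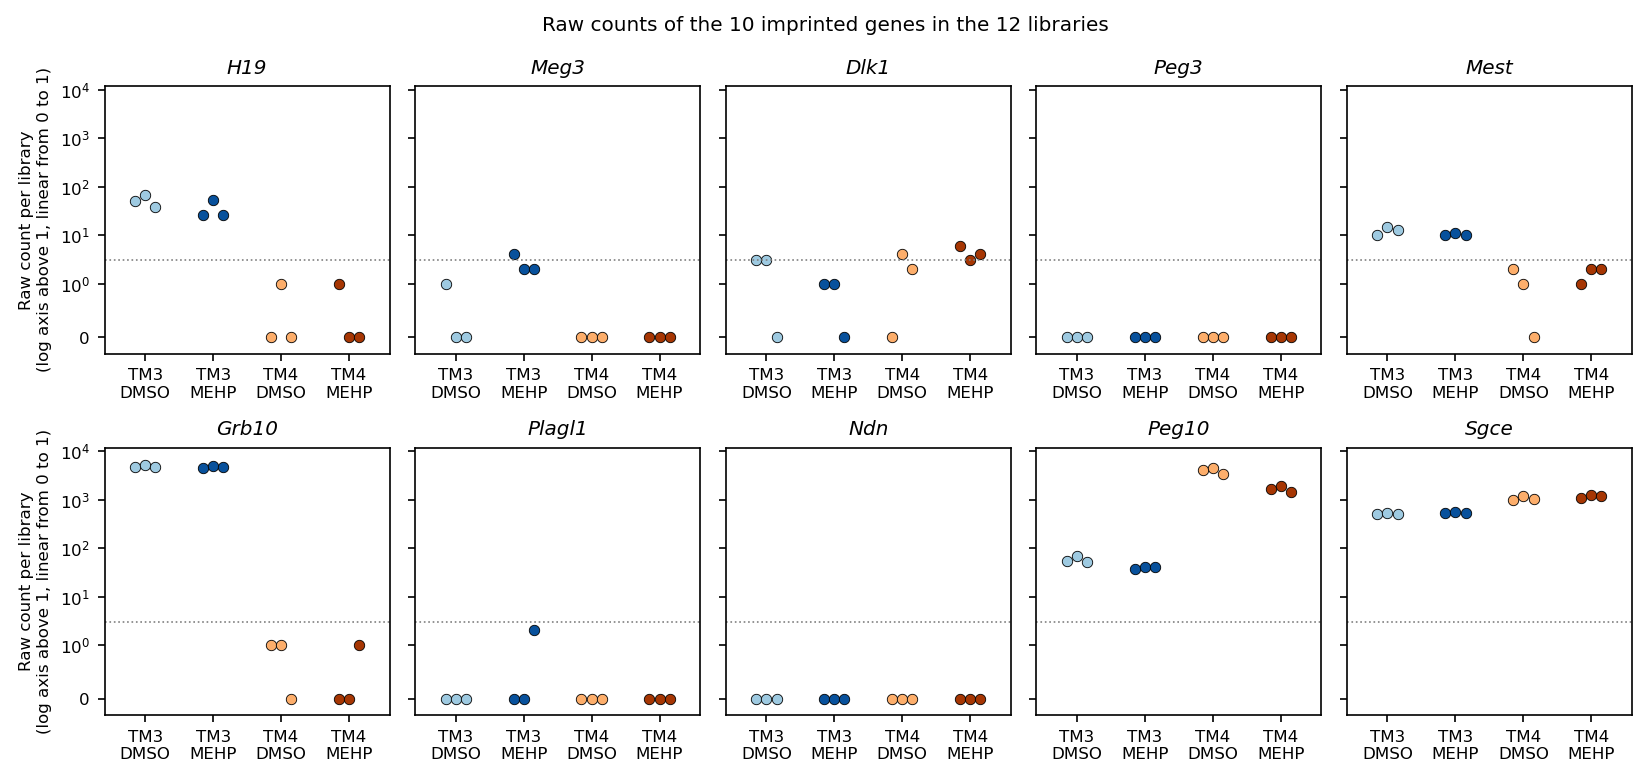
Raw counts of the 10 members in each of the 12 libraries, by group, on a vertical axis that is logarithmic above 1 and linear from 0 to 1; the dotted line marks 3 counts. Grb10 stands at 4630 to 5309 counts in TM3 libraries and at 0 or 1 in TM4, Peg10 runs the other way, and Peg3 and Ndn are at 0 throughout.

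Grb10 encodes an adaptor protein that binds insulin and IGF1 receptors and restrains their signal, and in most mouse tissues it is expressed from the maternal copy. In TM3 DMSO its counts were 4815, 5309 and 4755, and in TM3 MEHP 4630, 4878 and 4656. In TM4 they were 1, 1 and 0 under DMSO and 0, 0 and 1 under MEHP. Every TM3 library was thus high and every TM4 library lay under the limit of 3 counts. Scaled to depth, Grb10 (ENSMUSG00000020176, mm10, chromosome 11, 11930508 to 12038683) averaged 298 ± 5.29 CPM in TM3 DMSO and 291 ± 0.442 in TM3 MEHP (SD, n = 3). Against the 2 counts in TM4 DMSO, the TM3 DMSO sum of 14879 counts was 7355-fold higher per scaled library, with a 95% exact interval of 2036 to 60738 that covers counting error only.

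Neighbouring genes on chromosome 11 were examined for the same split, chosen after the Grb10 values were seen. Ddc, which makes dopamine and serotonin from their precursors and is paternally expressed in the mouse heart, had 397 to 435 counts in TM3 DMSO libraries and 1 to 3 in TM4 DMSO. Cobl, an actin nucleator on the other side of Grb10, had 122 to 146 counts in TM3 DMSO and 0 to 1 in TM4 DMSO. Fignl1, a DNA repair gene beyond Ddc, was present in both lines, at 410 to 439 and 158 to 233 counts. Ddc, Grb10 and Cobl were therefore high in TM3 and near zero in TM4. Each of them passed the filter on low counts through TM3 alone and so had to differ between the lines, and no regional pattern is read from them. Fignl1, at 25.3 ± 0.793 and 11.2 ± 1.72 CPM, showed a smaller difference (log2 difference, TM4 over TM3, -1.17 ± 0.11 (SE), edgeR adjusted p = 1.42e-11).

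**Figure D2:**
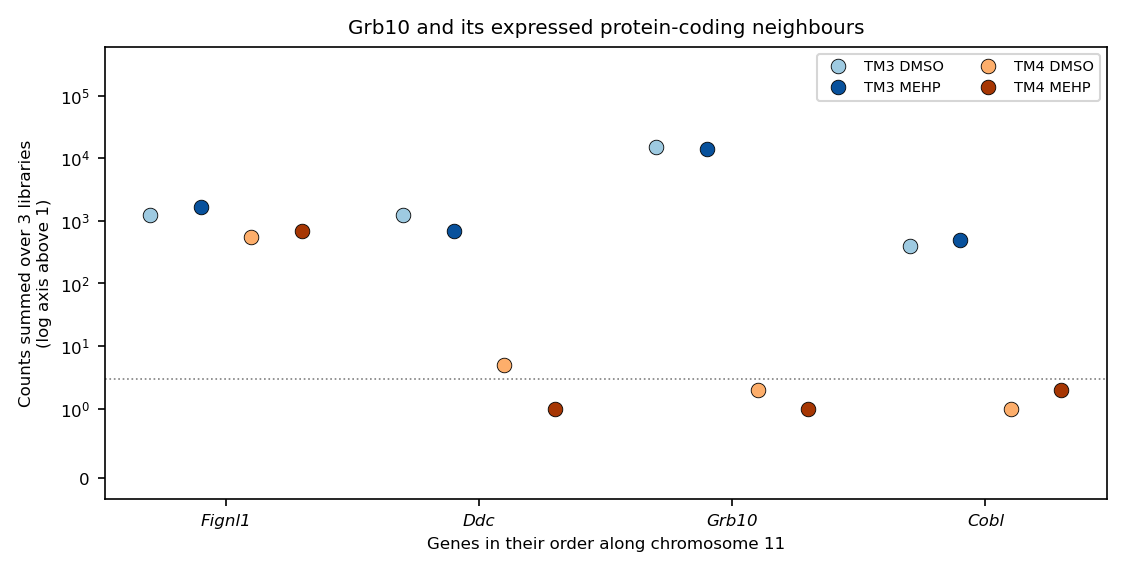
Counts summed over the 3 libraries of each group for Grb10 and the expressed protein-coding genes within 500 kb of it, in chromosomal order; the vertical axis is logarithmic above 1 and the dotted line marks 3 counts. Ddc, Grb10 and Cobl drop from 390 counts or more in TM3 DMSO to 5 or fewer in TM4 DMSO, and Fignl1 does not.

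Peg10 and Sgce are both paternally expressed and start back to back, with 98 bases between their gene models on chromosome 6. Peg10 (ENSMUSG00000092035, 4747306 to 4760517, plus strand) encodes the retrotransposon-derived protein needed for the mouse placenta. Its scaled levels in TM4 DMSO were 263, 251 and 217 CPM, and in TM3 DMSO 3.27, 3.91 and 3.23. The lines did not overlap, and Peg10 was 69.7-fold higher in TM4 (log2 difference 6.12 ± 0.11, SE, edgeR adjusted p = 6.18e-26). Sgce (ENSMUSG00000004631, 4674350 to 4747207, minus strand) encodes epsilon-sarcoglycan, a membrane protein of the dystrophin-associated complex. Its levels were 61.9, 66.0 and 67.0 CPM in TM4 DMSO and 30.8, 29.6 and 32.6 in TM3 DMSO. Sgce was thus higher in every TM4 library too, but only by 2.10-fold (log2 difference 1.07 ± 0.07, SE, adjusted p = 9.42e-16). Per kilobase of gene model, Sgce (2.92 ± 0.140 RPKM) exceeded Peg10 (0.521 ± 0.0577) in TM3 DMSO, and Peg10 (36.5 ± 3.6) exceeded Sgce (6.12 ± 0.252) in TM4 DMSO. On that scale Grb10 in TM3 DMSO, at 32.8 ± 0.582 RPKM, was near the Peg10 level of TM4 DMSO.

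H19 is a maternally expressed noncoding RNA that shares control elements with Igf2 and is abundant in fetal tissue. The gene lies on chromosome 7 from 142575529 to 142578143, minus strand. Its counts were 51, 67 and 38 in TM3 DMSO, 26, 52 and 26 in TM3 MEHP, 0, 1 and 0 in TM4 DMSO and 1, 0 and 0 in TM4 MEHP. H19 was present in every TM3 library and absent from 4 of the 6 TM4 libraries at this depth. The TM3 DMSO sum of 156 counts against 1 in TM4 DMSO gave a ratio of 154, with an exact 95% interval of 27.3 to 6130. Per kilobase H19 reached 1.26 ± 0.284 RPKM in TM3 DMSO, well under Grb10 there. Igf2, its partner gene, was at 0 counts in all 12 libraries. Mest encodes an enzyme-like protein of the endoplasmic reticulum expressed from the paternal copy. It spans 30723547 to 30748465 of chromosome 6, plus strand. Its counts were 10, 15 and 13 in TM3 DMSO, 10, 11 and 10 in TM3 MEHP, 2, 1 and 0 in TM4 DMSO and 1, 2 and 2 in TM4 MEHP. The TM3 counts all lay above those of TM4, with a ratio of 12.5 under DMSO and an exact 95% interval of 3.97 to 63.4. Mest shares 912 bases of its span with Copg2, which is read from the other strand and has 15579 counts against the 77 of Mest. Reads of Copg2 and Mest may not have been told apart, since the sources used here do not give the strand setting of the counting.

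The other 5 members had too few counts for an order of the groups to be read. On mm10, Dlk1 (109452823 to 109463336) and Meg3 (109541001 to 109571726) lie on chromosome 12, Peg3 (6703892 to 6730431) and Ndn (62346569 to 62350262) on chromosome 7, and Plagl1 (13060504 to 13131694) on chromosome 10. Peg3, a zinc finger gene, and Ndn, the necdin gene of the Prader-Willi region, had 0 counts in all 12 libraries. Plagl1, a zinc finger regulator of other imprinted genes, had 2 counts, both in TM3 MEHP replicate 3. Meg3, a maternally expressed noncoding RNA, had 1, 0 and 0 counts in TM3 DMSO, 4, 2 and 2 in TM3 MEHP and 0 in every TM4 library. The 8 counts under MEHP against 1 under DMSO gave a ratio of 8.22 with an exact 95% interval of 1.10 to 365, and these TM3 groups did not overlap. The highest Meg3 library held 4 counts, so these are given as counts and not as a change. Dlk1, a membrane protein of the Notch ligand type, had 3, 3 and 0 counts in TM3 DMSO, 1, 1 and 0 in TM3 MEHP, 0, 4 and 2 in TM4 DMSO and 6, 3 and 4 in TM4 MEHP. The Dlk1 groups overlapped except that TM4 MEHP lay above TM3 MEHP. There, 13 counts in TM4 against 2 in TM3 gave a ratio of 6.02, with an exact 95% interval of 1.36 to 54.9. The highest Dlk1 library held 6 counts, so these too are given as counts and not as a difference.

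Neighbours in the same clusters ranged from 0 counts to well measured levels. In the cluster of Dlk1 and Meg3, Rtl1, another retrotransposon-derived gene, had 146, 165 and 108 counts in TM3 DMSO and 0 in every TM4 DMSO library, at least 138-fold higher in TM3 with 3 counts over the group as the limit. A maternally expressed antisense transcript covers Rtl1, and with the strand setting not given their reads cannot be told apart. Rian, a maternal noncoding RNA of the same cluster, had 30, 15 and 6 counts in TM3 DMSO and 0 in TM4 DMSO, whereas Mirg summed to 3 counts over all libraries and Dio3 to 1. Beside Ndn, Magel2 had 1 count and Snurf 0, Snrpn had 8 counts, all in TM4, and Mkrn3 and Peg12 were measured in both lines. On the same strand, Snurf shares 9601 bases of its span with Snrpn and with Gm38393, a gene model of 18 counts. Snrpn shares 22570 bases of its span with Gm38393. With the counting options not given, reads shared by these models may have gone uncounted, so low counts of Snurf and Snrpn need not mean absence. Under DMSO Mkrn3, a ubiquitin ligase gene, had 3.85 ± 0.780 CPM in TM3 against 1.54 ± 0.297 in TM4, and Peg12 had 2.24 ± 0.366 against 0.809 ± 0.0461. Ube3a, another ubiquitin ligase gene of that region, had 79.5 ± 0.207 CPM in TM3 against 142 ± 4.62 in TM4. Beside Peg3, Usp29, Zim1, Zim3 and Zfp264 were at 0 throughout, as were Klf14 beside Mest and Tfpi2 beside Peg10. Further neighbours at or near zero were Ins2 (2 counts in all), Asb4 (3), Calcr (1) and Phactr2 (3). Ppp1r9a, downstream of Peg10, had 0 counts in TM3 and 2, 6 and 3 in TM4 DMSO, at least 3.71-fold higher in TM4. Pon2 and Pon3, further along, were measured in both lines, under DMSO at 31.5 ± 1.28 and 18.8 ± 2.84 CPM in TM3 against 44.4 ± 2.78 and 33.8 ± 1.87 in TM4.

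The next comparison asked what MEHP did to these genes in TM4. Peg10 fell in TM4, from 263, 251 and 217 CPM under DMSO to 100, 107 and 84.0 under MEHP. The highest MEHP library was under the lowest DMSO library. The group means were 243 ± 24.0 and 97.1 ± 11.8 CPM, a fold of 0.399 (log2 fold change -1.33 ± 0.07, SE, edgeR adjusted p = 7.50e-13), with log2 values of -1.40 to -1.23 over all alternative settings. Of the 5 members tested it was the 1 that passed in TM4, where 30.9% of the genes tested did, 15% being called lower. Summed peritubular myoid markers moved with it, at 485 to 527 CPM in TM4 DMSO and 208 to 239 in TM4 MEHP, with none of the 4 genes at 0. Of these, Acta2, smooth muscle actin, made up most of the sum and fell from 494 ± 21.7 to 213 ± 15.2 CPM (edgeR adjusted p = 2.08e-16). Cnn1 fell too (adjusted p = 0.00337), while Des stood at 1.95 ± 0.0199 and 2.29 ± 0.429 CPM and did not pass (0.496). Myh11, with 64 counts over all libraries, did not pass the filter on low counts. Summed Sertoli markers stood at 252 to 261 and 221 to 235 CPM in the same groups. Their part in the Peg10 value was not tested. In bulk RNA, fewer cells with Peg10 and less Peg10 RNA per cell cannot be told apart.

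Sgce, which starts 98 bases away, stood at 61.9, 66.0 and 67.0 CPM in TM4 DMSO and 64.5, 67.4 and 69.0 in TM4 MEHP. These groups overlapped, and Sgce did not pass (log2 fold change 0.04 ± 0.06, SE, adjusted p = 0.653). The count ratio of Peg10 to Sgce within a library, which needs no scaling, was 4.24, 3.8 and 3.23 in TM4 DMSO and 1.55, 1.59 and 1.22 in TM4 MEHP. Each MEHP ratio was below each DMSO ratio, with a mean log2 difference of -1.37 and an exact two-sided permutation p of 0.1 (n = 3 per group), the smallest that 3 against 3 libraries allow.

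**Figure D3:**
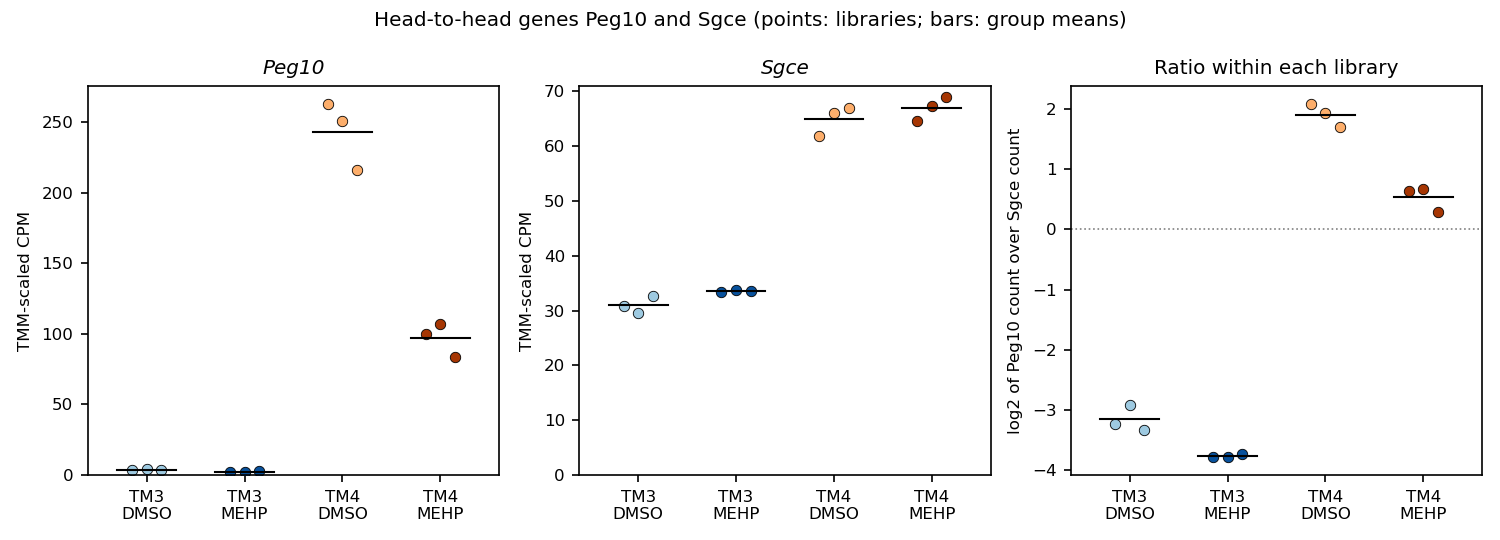
TMM-scaled CPM of Peg10 and of Sgce and, at right, the log2 ratio of their counts, for each library (points) with group means (bars); the CPM axes start at 0. Peg10 drops from a mean of 243 to 97.1 CPM with MEHP in TM4 while Sgce stays between 61.9 and 69.0 CPM, and the ratio is lower under MEHP in both lines.

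In TM3 none of the 5 members tested passed at an adjusted p under 0.05, where 16.5% of the genes tested did, 9.04% higher and 7.43% lower (edgeR). Peg10 was the 1 member with an unadjusted p under 0.05. DESeq2 called 1 member and limma-voom 0. Peg10 counts were 54, 69 and 51 under DMSO and 38, 41 and 40 under MEHP, so the groups did not overlap. The log2 fold change was -0.51 ± 0.20 (SE, adjusted p = 0.0794, and 0.0216 to 0.355 over the alternatives). It passed with the replicate block (0.0216), without a filter on low counts (0.0344), with DESeq2 (0.0376), without TM4 DMSO replicate 3 (0.0447) and without TM4 MEHP replicate 3 (0.0341). Its ratio to Sgce was 0.106, 0.132 and 0.0990 under DMSO and 0.0718, 0.0726 and 0.0746 under MEHP, a mean log2 difference of -0.61 (exact two-sided permutation p = 0.1, n = 3 per group, the smallest possible). Sgce stood at 31.0 ± 1.49 and 33.5 ± 0.221 CPM in TM3 and did not pass (0.11 ± 0.07, adjusted p = 0.300). The myoid markers summed to 34.3 to 42.4 CPM in TM3 under DMSO and 48.2 to 49.9 under MEHP, where Acta2 rose (log2 fold change 0.35, adjusted p = 0.000542), the opposite direction to TM4.

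Grb10 held its level in TM3 to within a narrow margin, at 292, 301 and 301 CPM under DMSO and 292, 291 and 291 under MEHP. The log2 fold change was -0.03 ± 0.05 (SE, adjusted p = 0.748), and the alternatives gave -0.04 to -0.02. H19 stood at 3.10 ± 0.699 CPM under DMSO and 2.12 ± 0.852 under MEHP in TM3, with overlapping libraries and no call (-0.54 ± 0.31, adjusted p = 0.265). Mest did not pass either (-0.25 ± 0.45, adjusted p = 0.780). In TM4, Grb10, H19 and Mest had at most 2 counts per library, and no response to MEHP was detectable at this depth. The response of Peg10 was stronger in TM4 than in TM3 by the test of the difference (TM4 minus TM3 -0.82 ± 0.21 log2, SE, adjusted p = 0.00575), which 26.3% of all genes tested passed. That call was lost with limma-voom (adjusted p = 0.0856), and over all alternatives the value was 0.000108 to 0.0856.

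The wider imprinted list held 57 further genes, of which 48 had a count and 29 passed the filter. With MEHP 1 rose and 4 fell in TM3, where 16.5% of all genes tested passed, and 2 rose and 4 fell in TM4, where 30.9% did. For the difference of responses 3 were higher and 4 lower, beside 26.3% of all genes tested. Setting aside genes at or under 3 counts in both groups, the median log2 fold change was -0.04 over 27 genes in TM3 and -0.05 over 25 in TM4, against 0.01 and 0.00 over all genes tested. Between the lines under DMSO 15 were higher and 13 lower in TM4, beside the 82% of all genes that differed, and nothing particular to the list is read from these counts. Among them Rtl1, Rian, Slc22a18, Slc22a2, Ddc, Nespas, Htr2a and Slc38a4 passed the filter through 1 line alone and so had to differ between the lines.

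Beside Grb10, Ddc fell with MEHP in TM3, from 26.4, 23.9 and 25.1 CPM to 13.9, 15.2 and 13.9. No library of these groups overlapped, and the log2 fold change was -0.81 ± 0.11 (SE, edgeR adjusted p = 3.61e-06, and at most 0.000127 over the alternatives). The count ratio of Ddc to Grb10 went from 0.0844 ± 0.00549 to 0.0492 ± 0.00252 (SD, exact two-sided permutation p = 0.1, n = 3 per group, the smallest possible). Ddc shares 17199 bases of its span with an antisense gene of 74 counts in all. Cobl did not pass in TM3 (0.37 ± 0.17, adjusted p = 0.139), and Fignl1 rose there (0.42 ± 0.10, adjusted p = 0.00226).

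Among neighbours of the other members, Copg2, a coat protein gene beside Mest, rose in TM3 (0.18 ± 0.06, adjusted p = 0.0485). Copg2 did not pass with RLE factors, DESeq2 or no filter on low counts (0.0675 to 0.0786), nor when replicate 2 or 3 of TM3 DMSO, 1 or 2 of TM3 MEHP, or 2 of TM4 DMSO or of TM4 MEHP was left out (0.0504 to 0.242), and upper-quartile factors put it at 0.05 after rounding, also not called. Ube3a fell in TM4 (-0.20 ± 0.05, adjusted p = 0.00394). Rtl1 stood at 8.35 ± 1.34 and 6.40 ± 0.408 CPM in TM3 DMSO and MEHP and did not pass (adjusted p = 0.149, though 0.0459 in a fit of only the libraries compared), nor did Rian (0.844), Mkrn3 (0.395) or Peg12 (0.258) there, and Mkrn3 (0.933) did not pass in TM4. Peg12 had 13, 15 and 12 counts in TM4 DMSO and 37, 29 and 8 in TM4 MEHP, which overlap. It was not called (0.80 ± 0.39 log2, SE, adjusted p = 0.123), but without TM4 MEHP replicate 3 it was 1.21 (adjusted p = 0.00708). Pon2 and Pon3 passed in neither line (adjusted p = 0.148 to 0.350), though Pon3 rose in TM3 without TM3 DMSO replicate 2 (0.33 log2, edgeR adjusted p = 0.0338).

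Elsewhere in the genome, Dcn, the decorin gene, imprinted in the mouse placenta, fell in both lines, from 877 ± 25.1 to 701 ± 13.4 CPM in TM3 (log2 fold change -0.32 ± 0.06, adjusted p = 7.39e-05) and from 65.4 ± 4.82 to 22.9 ± 2.34 in TM4 (-1.51 ± 0.07, adjusted p = 8.40e-17). Impact, a paternally expressed inhibitor of the kinase GCN2, fell in TM3 from 61.0 ± 4.55 to 45.7 ± 2.78 CPM and rose in TM4 from 137 ± 4.31 to 178 ± 2.82 (adjusted p = 1.11e-05 and 4.15e-06). Slc38a4, an amino acid transporter gene, rose in TM4 from 16, 14 and 20 counts to 45, 40 and 39 (log2 fold change 1.21 ± 0.36, adjusted p = 0.00980, and 0.0714 without TM4 DMSO replicate 2). Htr2a, a serotonin receptor gene with 0 counts in TM3, fell in TM4 from 6.80 ± 0.507 to 4.25 ± 0.171 CPM (adjusted p = 0.00838). Gnas, the gene of a stimulatory G protein subunit, fell in TM3 (-0.20 ± 0.07, adjusted p = 0.0449). Its value was 0.0502 with limma-voom and 0.0507 to 0.271 when any 1 of the TM3 DMSO replicates was left out, or replicate 1 or 2 of TM3 MEHP, or replicate 1 of TM4 DMSO or of TM4 MEHP. Between the lines under DMSO, the largest fitted changes called were those of Rtl1, Htr2a, Slc22a18 and Ddc, but all except Ddc were fitted against groups at 0 counts, so no order is read from them. Rtl1, Slc22a18 and Ddc passed the filter through TM3 alone and Htr2a through TM4 alone, so they had to differ between the lines. Slc22a18, an organic cation transporter gene, was at least 29.99-fold higher in TM3 and Htr2a at least 113-fold higher in TM4. Under MEHP the same rule named these 4 genes. Ddc had 697 counts in TM3 and 1 in TM4 there (ratio 753, exact 95% interval 135 to 29778), Rtl1 had 311 and 1 (ratio 336, 59.8 to 13310), Slc22a18 was at least 32.0-fold higher in TM3 and Htr2a at least 68.8-fold higher in TM4.

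**Figure D4:**
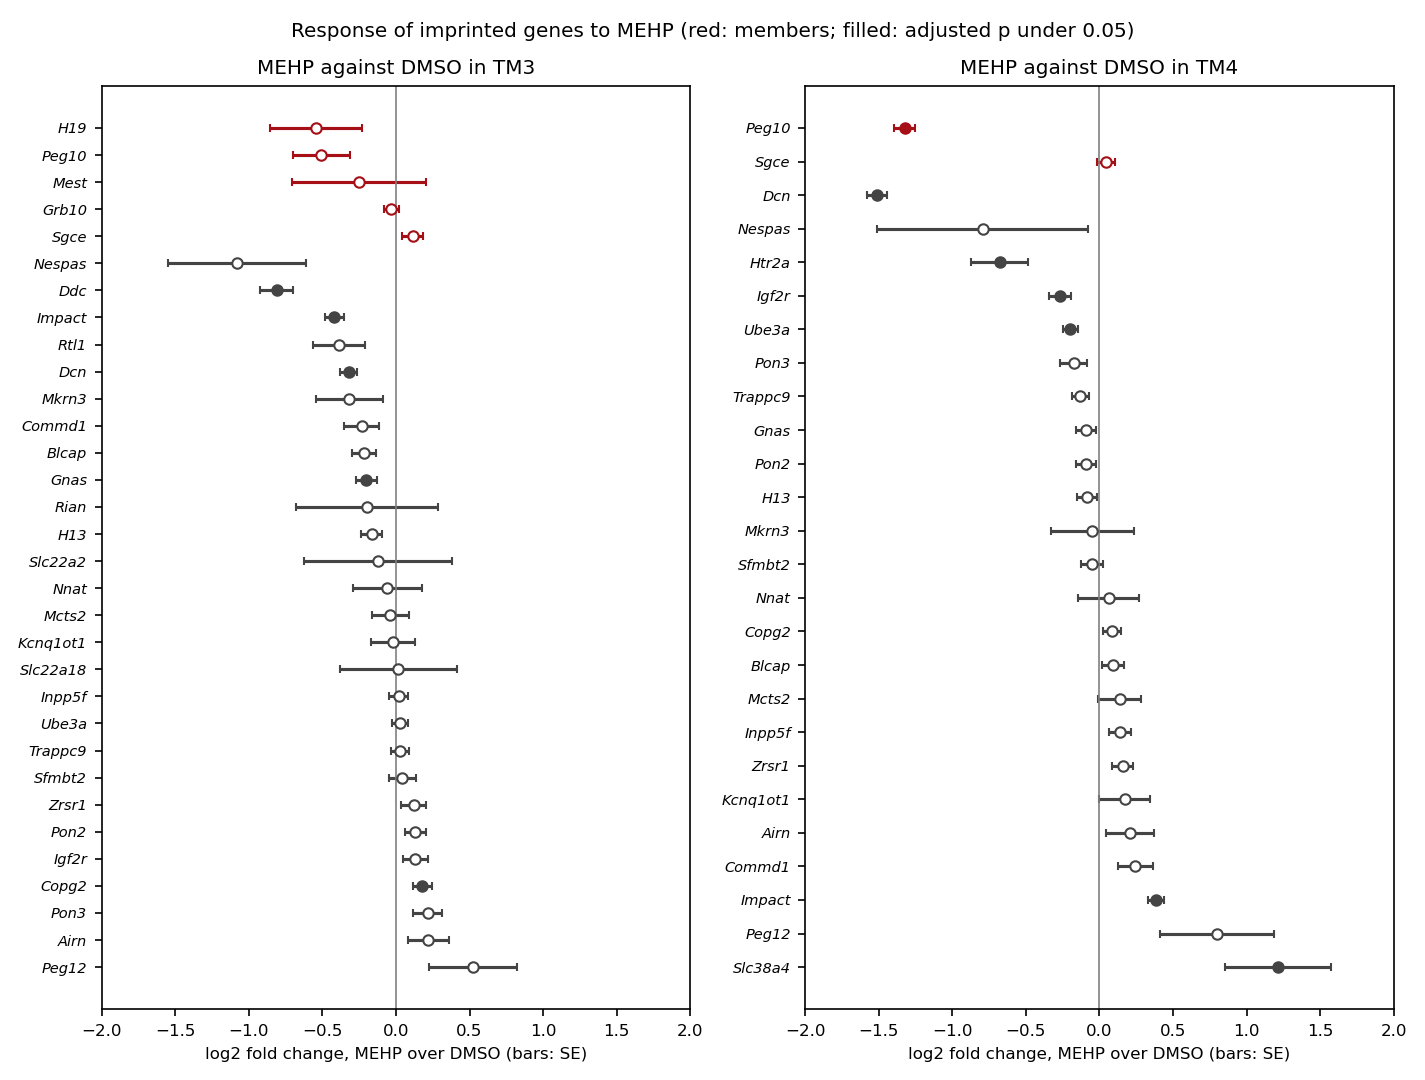
Log2 fold change of MEHP over DMSO with its SE for each imprinted gene that passed the filter and had more than 3 counts in both groups, in TM3 (left) and TM4 (right); red marks members and filled points an adjusted p under 0.05. In TM4 Peg10 at -1.33 and Dcn at -1.51 lie far to the left, and Sgce lies at 0.04.

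Proteins that keep imprints were transcribed in both lines, and 8 of the 9 listed genes passed the filter. The exception, the oocyte factor Dppa3, was at 0 counts. Between the lines under DMSO, 3 were higher and 3 lower in TM4, beside the 82% of all genes that differed. In TM3, 3 rose and 1 fell, beside 16.5% of all genes. Uhrf1 and Dnmt1, which copy methylation after replication, rose from 80.5 ± 4.12 to 110 ± 5.48 CPM and from 145 ± 7.65 to 175 ± 1.07 CPM (edgeR adjusted p = 3.03e-06 and 0.000875), and Smchd1, a chromatin silencer, rose by 0.24 ± 0.06 log2 (adjusted p = 0.00767). In TM4, 2 rose and 2 fell, beside 30.9% of all genes. Zfp445, a zinc finger gene that guards imprints, rose from 72.1 ± 4.86 to 115 ± 12.3 CPM (0.68 ± 0.07 log2, adjusted p = 3.02e-09), and Zfp57 rose from 133 ± 11.6 to 161 ± 5.14 CPM (0.28 ± 0.06, adjusted p = 0.000303). Ctcf, the insulator protein that binds the unmethylated H19 control region, fell from 71.2 ± 2.68 to 56.6 ± 1.29 CPM in TM4 (-0.33 ± 0.06, adjusted p = 8.03e-05). Trim28, the corepressor that zinc finger proteins recruit, fell in TM3 (-0.15 ± 0.05, adjusted p = 0.0448) and in TM4 (-0.18 ± 0.05, adjusted p = 0.0106). The TM3 fall of Trim28 was not called when replicate 1 or 3 of TM3 DMSO, any 1 of TM3 MEHP or replicate 1 of TM4 DMSO was left out (0.0552 to 0.205), and its TM4 fall was not called without TM4 DMSO replicate 2 or TM4 MEHP replicate 1 (0.0507 to 0.0634).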

How the data were processed

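Per the labels' protocols, 12 poly-A libraries were read in pairs of 150 bases. What the authors deposited and is used here are raw counts per gene, whole numbers with no normalization. The submitters' processing notes name mm10, featureCounts 1.5.0-p3, HISAT2 2.0.5, edgeR, StringTie 1.3.3b and DESeq2 1.20.0, with counting options not given in the sources used here. The deposited table also gives gene coordinates and lengths. The members and lists were chosen with earlier results of these data known.

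Here 15700 genes kept by filterByExpr (minimum count 10, minimum total 15) were tested in 1 fit over all libraries with the robust quasi-likelihood F-test of edgeR 4.0.16 (R 4.3.3), TMM factors and 8 residual degrees of freedom, with Benjamini-Hochberg adjustment over all of them and a threshold of 0.05. SE was computed by dividing the size of the log2 fold change by the root of F. RPKM divides scaled CPM by the table's gene length. Ratios of group sums have exact 95% conditional intervals. Neighbours of a member in its cluster, up to 4 other imprinted genes per comparison with the largest called change, and imprint maintenance genes that passed were named. The fit was also run on simulated counts with changes placed in the MEHP comparison of each line, and the outcome is not given here. Comparisons between the lines were not simulated. Alternatives were upper-quartile or RLE factors, no filter, a stricter filter (1 CPM in 3 libraries), DESeq2 1.42.0, limma-voom (limma 3.58.1), a replicate block, fits on the libraries compared, a threshold of 0.01, and each library left out.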

Additional observations from a re-analysis of the deposited data

Results flagged for a closer look

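The responses of the lines to MEHP differed by the test of the difference itself (TM4 minus TM3, log2, edgeR adjusted p under 0.05) for 1 of the 5 members tested. So did those of 7 of 29 other imprinted genes and 5 of 8 imprint maintenance genes, where 26.3% of all genes tested passed. The member was Peg10, at -0.82 (adjusted p = 0.00575), which was lower with MEHP in every library of both lines. Among imprinted genes outside the members, the values were -0.22 for Ube3a, -0.39 for Pon3, -0.40 for Igf2r, 0.48 for Commd1, 0.80 for Impact and -1.19 for Dcn, and the seventh was Blcap at 0.31 (adjusted p = 0.0331). Ube3a, Pon3 and Commd1 each lost the call without 1 of several libraries (adjusted p = 0.0508 to 0.0680, 0.0513 to 0.133 and 0.0586 to 0.188), as did Blcap (0.0648 to 0.109). Commd1 also lost it with DESeq2 (0.0529) and limma-voom (0.0585), and Ube3a (0.0785) and Blcap (0.0673) without a filter on low counts. Impact fell in TM3 and rose in TM4.

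Among imprint maintenance genes, the differences were 0.65 for Zfp445, -0.39 for Dnmt1, -0.37 for Uhrf1, -0.26 for Ctcf and -0.27 for Smchd1. Ctcf and Smchd1 lost the call without 1 of several libraries (0.0505 to 0.0710 and 0.0529 to 0.0793).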

How the results depend on the processing

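The fall of Peg10 in TM4 and the differences of Peg10 and Sgce between the lines kept direction and call under every alternative run; for Grb10, H19 and Mest the filter fixed the difference between the lines. Counts of genes called at an adjusted p under 0.01 were 1492 for MEHP in TM3, 3220 in TM4 and 2588 for the difference of responses, and those of other imprinted genes were 3 in TM3 and 3 for the difference. In TM3, 1 member (Peg10) was called without a filter on low counts, with DESeq2 and with the replicate block, and 0 to 1 with a library left out. Other imprinted genes called in TM3 numbered 8 in a fit of only the libraries compared and 3 to 5 with a library left out. For the difference of responses, limma-voom called 0 members, and other imprinted genes called numbered 3 to 6 with a library left out. Genes called in TM3 ranged from 1742 to 2949 and in TM4 from 3745 to 4900 in those fits.

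Same-numbered libraries deviated together little if at all (correlations from -0.08 to 0.12, 2 of 18 over 0.1), so the numbers were not taken to pair the libraries. Both values over 0.1 lay between TM4 DMSO and TM4 MEHP, at 0.114 for replicate 1 and 0.120 for replicate 3, with 0.028 for replicate 2. Different-numbered libraries of these groups gave -0.120 to 0.00674, while replicate 2 of TM3 DMSO and replicate 1 of TM4 MEHP gave 0.130. With the replicate block 2827 genes were called in TM3 and 5029 in TM4, against 2585 and 4856 without it. Of single-gene values outside leave-one-out fits, 1549 kept direction and call, 21 lost and 13 gained a call, 7 changed sign and 17 had no adjusted p; in leave-one-out fits 2377 kept both, 78 lost and 13 gained a call and 52 changed sign. No value that changed sign was called in either fit. With a library left out, log2 values that crossed 0 in TM3 were -0.021 to 0.055 for Inpp5f, -0.13 to 0.22 for Kcnq1ot1, -0.14 to 0.025 for Mcts2, -0.21 to 0.073 for Nnat, -0.58 to 0.51 for Rian, -0.017 to 0.14 for Sfmbt2, -0.36 to 0.50 for Slc22a18, -0.47 to 0.57 for Slc22a2, -0.46 to 2.70 for Slc38a4 and -0.00061 to 0.057 for Zfp445. With a library left out, log2 values that crossed 0 in TM4 were -1.89 to 1.82 for H19, -0.19 to 0.10 for Mkrn3, -0.12 to 0.17 for Nnat, -0.050 to 0.020 for Setdb1 and -0.085 to 0.066 for Smchd1. With a library left out, log2 values that crossed 0 for the difference of responses were -0.17 to 0.19 for Airn, -1.35 to 2.37 for H19, -0.047 to 0.31 for Kcnq1ot1, -0.27 to 1.01 for Nespas, -0.049 to 0.28 for Nnat, -0.18 to 0.68 for Peg12, -0.50 to 0.36 for Slc22a18, -0.57 to 0.47 for Slc22a2, -1.48 to 1.68 for Slc38a4, -0.075 to 0.024 for Trim28 and -0.039 to 0.12 for Zrsr1. Limma-voom gave the other sign for Kcnq1ot1 (0.0017), Rian (0.013) and Slc22a2 (0.10) in TM3 and for Peg12 (-0.0015) and Slc22a2 (-0.19) in the difference, and upper-quartile factors for Airn (0.0049) in the difference and Setdb1 (0.0076) in TM4. The cause of each change was not tested. At this depth, a count of 0 in a library allows up to 0.165 to 0.190 CPM.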
